A study of Mus musculus with 22 samples.

Results

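The genes described here are 9 markers of the deep layers of the cerebral cortex: Fezf2, Bcl11b, Tbr1, Foxp2, Etv1, Rprm, Tle4, Crym and Ccn3. They were taken by gene symbol from the 20565 genes listed in the deposited tables. The rule itself uses no measured value, but the members were chosen with earlier results of these data known. All 9 were found once, and all 9 passed the filter on low counts in each comparison.

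The data are bulk RNA sequencing of mouse prefrontal cortex, with 5 libraries labelled WT and 6 labelled cKO from males, and 5 labelled WT and 6 labelled cKO from females. Every mouse carried floxed Smc3, which encodes a subunit of cohesin, the ring-shaped complex that holds sister chromatids together and folds chromosomes into loops. The groups labelled cKO also carried Camk2a-cre/ERT2, a Cre recombinase that tamoxifen activates in forebrain excitatory neurons, and the groups labelled WT lacked it. Tamoxifen was given by oral gavage to all groups, so the WT animals carry the floxed allele and the drug but no Cre. The labels describe 8-week-old mice and a time of 6 weeks after tamoxifen. The study asked what SMC3 does in the adult brain, and the comparison available for each gene is cKO against WT within each sex. Since each library is a piece of whole tissue, fewer cells of a type and less RNA per cell cannot be told apart in any value below.

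Excitatory projection neurons of the cortex are sorted by layer and by the target of their axon. Neurons of layer 5 send axons to the brainstem, spinal cord and striatum or to other cortical areas, and many neurons of layer 6 send axons to the thalamus. Fezf2, Bcl11b, Tbr1, Foxp2 and Etv1 encode transcription factors, and Tle4 encodes a corepressor of the Groucho family. Some of these regulators, such as Fezf2, Bcl11b and Tbr1, set layer identity during development, and all of them remain expressed in the adult. Rprm, Crym and Ccn3 encode a cell-cycle inhibitor, a thyroid hormone-binding protein and a secreted matricellular protein, which are used as markers of deep-layer neurons.

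Total counts per library ran from 12771354 to 15028342 in males and from 13832715 to 16896239 in females, and the members had between 187 and 3826 counts in any library. Smc3, the targeted gene, went against the labels: it was higher in the libraries labelled cKO, at 130 to 174 CPM (counts scaled to library size) against 70.6 to 95.5 CPM in WT males, and at 122 to 148 CPM against 65.7 to 83.2 CPM in WT females. The counts are per whole gene and no source used here says which exons are deleted, so this value does not check the deletion, and every direction below is for libraries by their label. The titles name the hypothalamus whereas the tissue field names the prefrontal cortex. Avp, which defines vasopressin neurons of the hypothalamus, stood at 0 to 0.382 CPM. The summed level of the 8 hypothalamus markers found, of 11 listed, ran from 5.16 to 69.2 CPM, and the highest of them, named after its values were seen, was Trh at up to 61.4 CPM in a male cKO library. Slc17a7, the vesicular glutamate transporter of cortical excitatory neurons, stood at 756 to 2130 CPM. Markers of other cells varied widely within groups: the summed level of 19 oligodendrocyte markers, Mbp among them, ran from 2071 to 10818 CPM in male WT, 2772 to 13302 CPM in male cKO, 3474 to 11031 CPM in female WT and 4798 to 15410 CPM in female cKO libraries. The summed level of 16 striatum markers, Drd1 and Drd2 among them, ran from 319 to 844, 216 to 982, 334 to 840 and 457 to 1032 CPM in the same order. The part of these markers in the results was not tested beyond the fits with their scores given below.

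The promoters shown are those of members called in at least 1 sex that have an entry in the RefSeq promoter table (build GRCm38.p6, 250 bases before to 50 after the annotated start). The CTCF core was searched because cohesin is known to stop at sites bound by CTCF. Of the 9 members, 6 had an entry, and Etv1 and Tle4 had 2 each. Foxp2, Crym and Ccn3 had none, so the called members Crym and Ccn3 are missing here. Capitals mark letters that match the CTCF core CNAGNNGGC or the TATA box TATAAA on either strand; TGACG, the core of the cyclic AMP response element, was also searched and has no match in these windows. The sequence of Rprm lies at chr2:54085503-54085802 on the minus strand, and those of Etv1 at chr12:38779832-38780131 and chr12:38783461-38783760 on the plus strand.
Rprm: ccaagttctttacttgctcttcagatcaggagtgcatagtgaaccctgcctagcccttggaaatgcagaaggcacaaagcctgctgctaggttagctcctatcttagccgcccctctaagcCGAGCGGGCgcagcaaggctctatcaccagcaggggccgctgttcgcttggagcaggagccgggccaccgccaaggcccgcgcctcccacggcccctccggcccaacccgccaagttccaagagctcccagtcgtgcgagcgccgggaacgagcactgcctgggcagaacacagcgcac
Etv1, first entry: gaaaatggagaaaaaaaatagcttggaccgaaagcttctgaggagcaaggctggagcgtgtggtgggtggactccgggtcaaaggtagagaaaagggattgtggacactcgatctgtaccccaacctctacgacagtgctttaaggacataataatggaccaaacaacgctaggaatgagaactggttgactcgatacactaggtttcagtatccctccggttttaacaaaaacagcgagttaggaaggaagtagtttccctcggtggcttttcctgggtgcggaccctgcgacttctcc
Etv1, second entry: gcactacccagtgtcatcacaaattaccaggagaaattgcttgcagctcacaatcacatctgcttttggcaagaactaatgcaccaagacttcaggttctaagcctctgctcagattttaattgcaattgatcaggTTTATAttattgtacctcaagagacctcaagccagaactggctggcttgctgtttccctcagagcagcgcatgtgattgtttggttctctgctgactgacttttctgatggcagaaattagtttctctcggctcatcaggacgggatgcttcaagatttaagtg
The Rprm window holds 1 match to the CTCF core, on the forward strand at position -129 from the start. It also holds 1 match to the GC box GGGCGG, on the reverse strand at position -143, which does not overlap the first match and is left in lower case. The first Etv1 window holds none of the 4 motifs, and the second holds 1 match to the TATA box, on the reverse strand at position -114. Of 32851 mouse promoters of the same length, 20.8% hold the CTCF core, 20.8% TGACG, 35.7% the GC box and 13.6% the TATA box, counting both strands. None of the windows of Fezf2, Bcl11b, Tbr1 and Tle4 holds a match to the CTCF core. A match of letters does not show that CTCF binds there, and a link between any match and the genotype differences was not tested.

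Rprm was the member with the clearest difference between genotypes. It encodes Reprimo, an inhibitor of the cell cycle that p53 induces, and in the cortex it marks corticothalamic neurons of layer 6. In WT males it stood at 47.1, 52.6, 65.1, 86.6 and 123 CPM, and in the male libraries labelled cKO the lowest value was 27.1, the median 34.8 and the highest 40.3 CPM. In WT females the values were 60.4, 77.7, 78.0, 92.7 and 108 CPM, against a lowest of 23.1, a median of 29.1 and a highest of 33.1 CPM in cKO. Every cKO library was below every WT library in both sexes.

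Rprm fell in females by 1.55 on the log2 scale (SE 0.14, edgeR quasi-likelihood test with Benjamini-Hochberg adjustment, adjusted p = 0.000119), which is a 2.92-fold lower level. In males it fell by 1.15 (SE 0.23, edgeR adjusted p = 0.0495), a 2.21-fold lower level. The male call sat at the threshold: it held in 1 of the 11 fits that left out a library. That fit left out WT replicate 1, the lowest WT male for Rprm, which widens the gap by itself. The log2 fold change in the 11 fits lay between -1.27 and -0.89. DESeq2 gave an adjusted p of 0.000333 for the same male difference, and one fit of all 4 groups with edgeR gave 0.00303. The authors' deposited table lists a log2 fold change of -1.14 with an adjusted p of 0.000408 in males.

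Ccn3 had a difference of like size. Its product, formerly called NOV, is a secreted protein of the CCN family that binds integrins. In WT males it stood at 120, 197, 214, 237 and 294 CPM, and in cKO males the lowest value was 34.4, the median 101 and the highest 103 CPM. In WT females it stood at 163, 163, 219, 219 and 243 CPM, against a lowest of 44.95, a median of 87.4 and a highest of 116 CPM in cKO. The groups did not overlap in either sex.

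Ccn3 fell in females by 1.29 on the log2 scale (SE 0.23, edgeR adjusted p = 0.00692), a 2.45-fold lower level. In males the log2 fold change was -1.31 (SE 0.28, edgeR adjusted p = 0.0627), which missed the threshold of 0.05. It was under the threshold without cKO replicate 8 (edgeR adjusted p = 0.0212), without WT replicate 1 (0.0353) and with DESeq2 (adjusted p = 0.000566). Of these libraries, cKO replicate 8 was the lowest cKO male. WT replicate 1 was the lowest WT male, so leaving it out widens the gap by itself. In the authors' deposited table the male difference has an adjusted p of 0.000687.

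Crym, which encodes the thyroid hormone-binding protein mu-crystallin and marks deep-layer projection neurons, fell in females. WT females stood at 119, 137, 148, 180.5 and 182 CPM, and cKO females at a lowest of 77.9, a median of 102 and a highest of 111 CPM, with no overlap. The log2 fold change was -0.66 (SE 0.12, edgeR adjusted p = 0.00814), and the call was lost in one fit of all 4 groups (adjusted p = 0.280). In males WT libraries stood at 99.1, 104, 130, 170 and 205 CPM and cKO libraries at a lowest of 27.4, a median of 110 and a highest of 124 CPM. These male groups overlapped, and the log2 fold change of -0.59 had a 95% interval from -1.31 to 0.13 (edgeR adjusted p = 0.657).

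Etv1, an ETS-family transcription factor that marks layer 5 neurons, also fell in females. WT females stood at 60.8, 62.3, 70.2, 75.7 and 96.2 CPM, and cKO females at a lowest of 42.1, a median of 46.1 and a highest of 58.1 CPM, with no overlap. Its log2 fold change was -0.60 (SE 0.12, edgeR adjusted p = 0.0159), and the call was lost in one fit of all 4 groups (adjusted p = 0.194). In WT males it stood at 50.8, 62.6, 81.9, 92.0 and 93.6 CPM. In cKO males 5 libraries lay between 42.2 and 52.4 CPM and replicate 8 stood at 112 CPM, above every WT male. With all male libraries the log2 fold change was -0.38 (SE 0.25, edgeR adjusted p = 0.741). Without cKO replicate 8 alone it was -0.68 (edgeR adjusted p = 0.0695), a value that leaves out the highest library of its group.

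Fezf2, the zinc-finger factor that specifies layer 5 neurons projecting out of the telencephalon, was lower on average in both sexes and passed the test in neither. WT males stood at 45.9, 46.6, 71.1, 80.4 and 103 CPM, and cKO males at a lowest of 15.3, a median of 50.1 and a highest of 60.1 CPM. WT females stood at 51.2, 70.7, 72.1, 77.3 and 88.9 CPM, and cKO females at a lowest of 44.7, a median of 48.9 and a highest of 70.9 CPM. The groups overlapped in both sexes. On the log2 scale the difference was -0.62 in males (95% interval -1.30 to 0.05, edgeR adjusted p = 0.578) and -0.46 in females (-0.77 to -0.15, adjusted p = 0.112). In females it was under the threshold without cKO replicate 20 (edgeR adjusted p = 0.0359) or without WT replicate 16 (0.0297). These are the highest cKO and the lowest WT female library for Fezf2, so leaving out either widens the gap by itself.

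**Figure D1:**
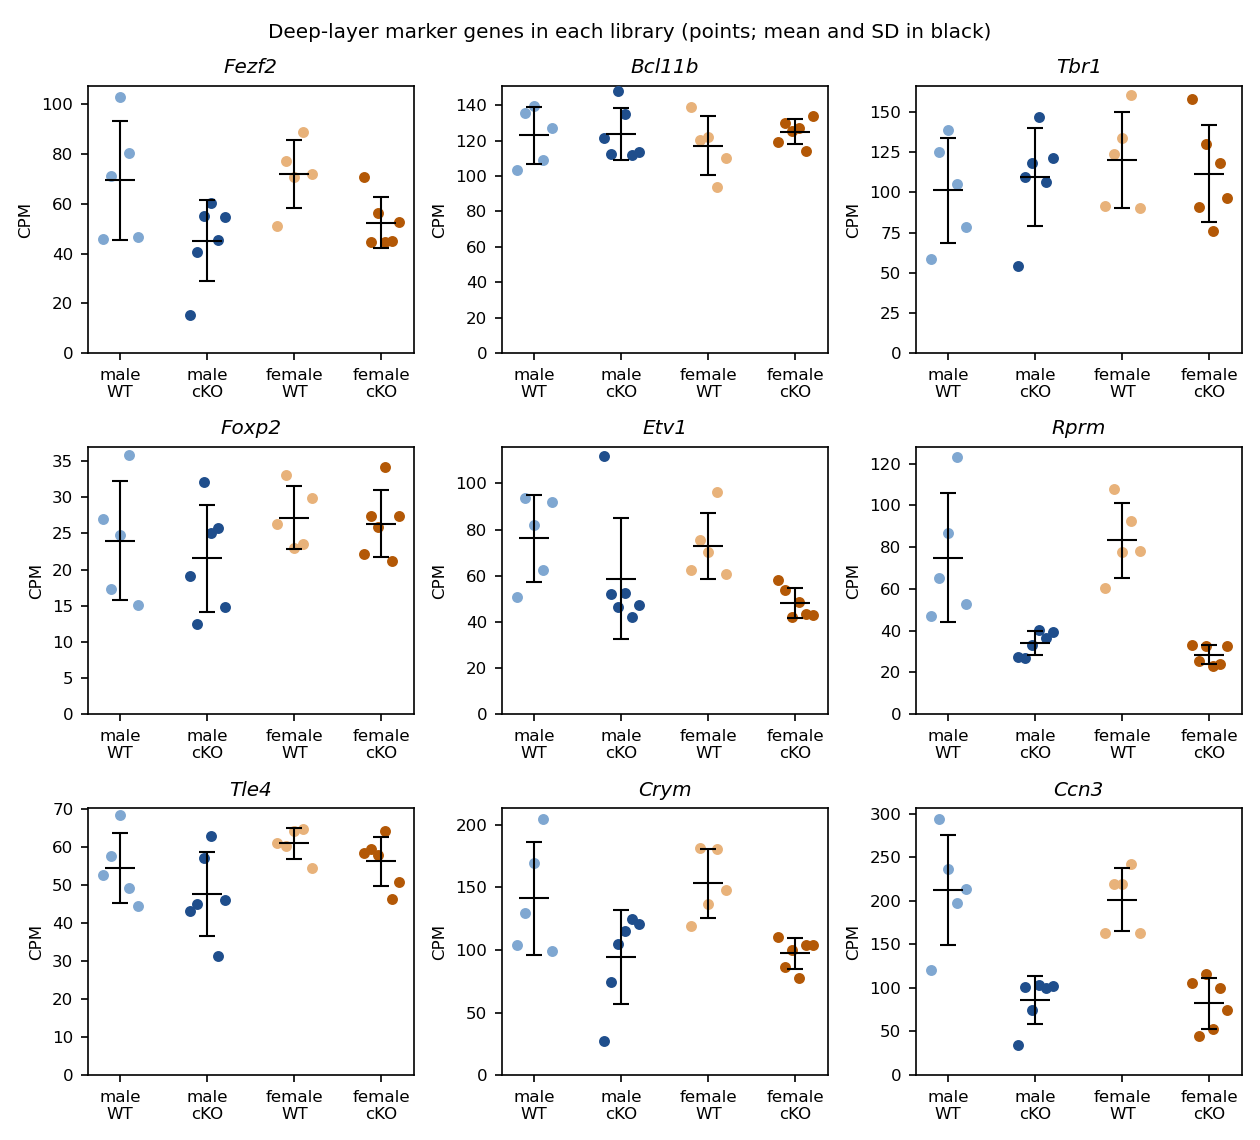
CPM (y axis, from 0) of each member in each library, with 1 panel per gene and the 4 groups on the x axis; points are libraries, and black marks give the mean and SD. Rprm and Ccn3 do not overlap between WT and cKO in either sex, and the cKO male at 112 CPM of Etv1 is replicate 8.

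The other 4 members are regulators whose WT and cKO levels overlapped in both sexes. Bcl11b, known as CTIP2, acts downstream of Fezf2 in subcerebral neurons and is also expressed in the striatum and in interneurons. It stood at 103, 109, 127, 136 and 140 CPM in WT males and at a lowest of 112, a median of 117 and a highest of 148 CPM in cKO males. In females WT libraries stood at 94.0, 110, 121, 122 and 139 CPM and cKO libraries between 114 and 134 CPM, with a median of 126 CPM. The groups overlapped, and the log2 fold change was 0.00 in males (95% interval -0.22 to 0.23, edgeR adjusted p = 0.999) and 0.09 in females (-0.10 to 0.28, adjusted p = 0.663). A fall of the size seen for Rprm lies outside both intervals.

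Tbr1, the T-box factor of layer 6 corticothalamic identity, varied more between libraries. It stood at 58.5, 78.65, 105, 125 and 139 CPM in WT males and between 54.4 and 147 CPM in cKO males, with a median of 114 CPM. WT females stood at 90.4, 91.7, 124, 134 and 161 CPM and cKO females between 75.9 and 158 CPM, with a median of 108 CPM. The difference of Tbr1 was 0.11 in males on the log2 scale (95% interval -0.44 to 0.65, edgeR adjusted p = 0.973) and -0.11 in females (-0.52 to 0.30, adjusted p = 0.837). Both sexes overlapped across nearly the whole range.

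Foxp2, a forkhead factor of layer 6 neurons that the striatum also expresses, was the lowest of the members per kilobase of exon. It stood at 15.1, 17.4, 24.8, 27.01 and 35.8 CPM in WT males and between 12.5 and 32.1 CPM in cKO males, with a median of 22.1 CPM. WT females stood at 22.95, 23.5, 26.3, 29.9 and 33.1 CPM and cKO females between 21.2 and 34.1 CPM, with a median of 26.6 CPM. The log2 fold change was -0.16 in males (95% interval -0.75 to 0.42, edgeR adjusted p = 0.950) and -0.05 in females (-0.33 to 0.24, adjusted p = 0.902), with groups that overlapped.

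Tle4, the corepressor of layer 6 corticothalamic neurons, stood at 44.4, 49.1, 52.6, 57.5 and 68.3 CPM in WT males and between 31.4 and 62.9 CPM in cKO males, with a median of 45.5 CPM. WT females stood at 54.4, 60.2, 60.9, 64.2 and 64.8 CPM and cKO females between 46.3 and 64.1 CPM, with a median of 58.1 CPM. The groups overlapped. On the log2 scale Tle4 differed by -0.20 in males (95% interval -0.55 to 0.15, edgeR adjusted p = 0.825) and -0.12 in females (-0.30 to 0.06, adjusted p = 0.530).

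**Figure D2:**
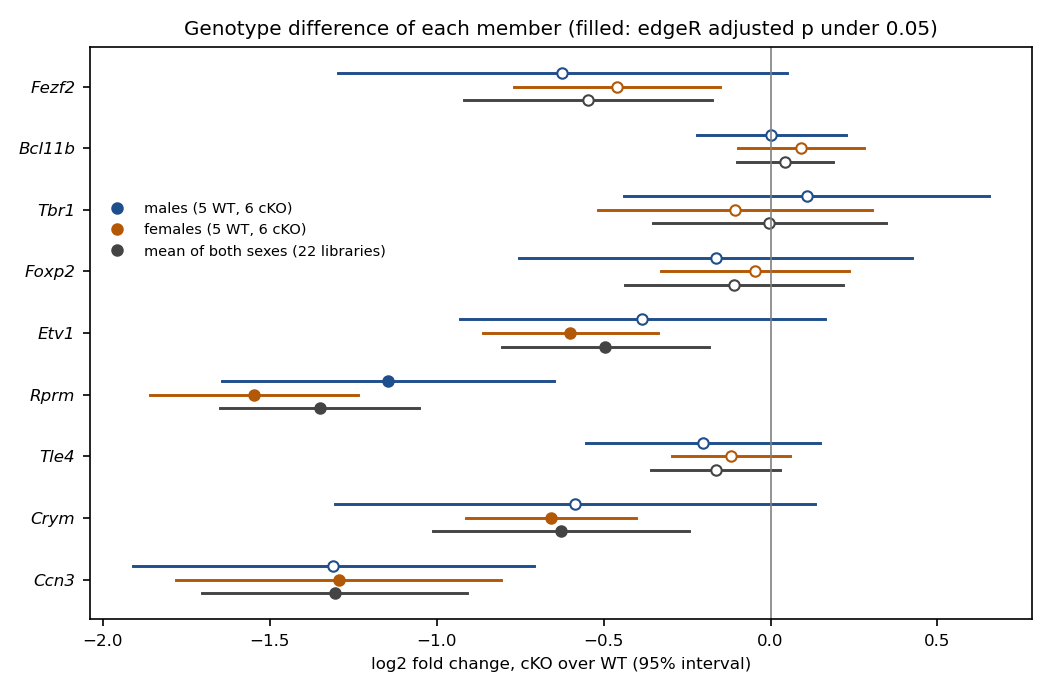
Log2 fold change of cKO over WT (x axis) with its 95% interval for each member in males, in females and as the mean of both sexes; filled points have an edgeR adjusted p under 0.05. The intervals of Rprm and Ccn3 lie wholly below 0 in each comparison, while those of Bcl11b, Tbr1, Foxp2 and Tle4 include 0.

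Counted over the members, 1 of 9 fell in males (Rprm) and 4 of 9 fell in females (Etv1, Rprm, Crym and Ccn3), and none rose. Of all genes tested, 0.503% fell in males and 2.75% fell in females. The members were chosen with earlier results of these data known, so these shares are no test of the members as a set. The cKO libraries lay wholly below the WT libraries for 2 of 9 members in males, where 1.21% of all genes did, and for 4 of 9 in females, where 2.54% did. The log2 fold change was negative for 7 members in males, with a median of -0.38, and for 8 members in females, with a median of -0.46, while the median over all genes was 0.01 in both sexes. In the authors' deposited table the members with an adjusted p under 0.05 were Rprm and Ccn3 in males, and Etv1, Rprm, Crym and Ccn3 in females.

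The male and female differences were compared directly with a genotype-by-sex term in one fit of all 22 libraries. None of the 9 members passed (edgeR adjusted p = 0.99998 for each), and 0% of the 16855 genes did, with 176 genes at an unadjusted p under 0.05 and 0 called by DESeq2. The 176 genes are a smaller share than the 0.05 that well-calibrated p-values would give with no difference in any gene. The cause was not tested, and the lack of calls does not show that the sexes are alike. The intervals are wide: male minus female was 0.40 for Rprm on the log2 scale (95% interval -0.19 to 0.995), 0.22 for Etv1 (-0.40 to 0.84), 0.07 for Crym (-0.70 to 0.84) and -0.02 for Ccn3 (-0.81 to 0.77). The 4 calls in females against 1 in males are therefore not shown to be a difference between the sexes. In the mean of both sexes from the same fit, added after the data were seen, Rprm (-1.35), Ccn3 (-1.31), Crym (-0.63, edgeR adjusted p = 0.0403) and Etv1 (-0.49, edgeR adjusted p = 0.0461) fell, and 4.67% of all genes did. Fezf2 stood at -0.55 with an edgeR adjusted p of 0.0703 in that fit.

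Per kilobase of exon, the 3 members with the highest level in WT libraries were Ccn3, Rprm and Crym. In WT males Ccn3 stood at 74.0 ± 22.02 CPM per kilobase (SD, n = 5), Rprm at 51.3 ± 21.2 and Crym at 41.7 ± 13.3, neighbours whose spreads overlap. Fezf2 (22.8 ± 7.92), Tbr1 (18.4 ± 6.00) and Bcl11b (15.2 ± 1.98) came next. They too overlap, and the spread of Fezf2 also overlaps that of Crym. Tle4 (9.54 ± 1.603), Etv1 (5.73 ± 1.41) and Foxp2 (1.47 ± 0.505) came last, each apart from the next by more than their SDs. The order in WT females was the same. The 4 members that fell in females are thus the 3 with the highest level per length and Etv1, which was next to last.

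The other genes known to mark deep layers were counted from lists by class. Among 9 further markers of layer 5 neurons that project out of the telencephalon, 8 were tested in males and 7 in females, and 1 fell in each sex. That gene was Parm1, with a log2 fold change of -1.22 in males (edgeR adjusted p = 0.0269) and -1.13 in females (adjusted p = 0.00214). All tested genes of that list were negative in both sexes, with medians of -0.41 and -0.34. Among 9 markers of other layer 5 neurons, none was called in males, and in females Deptor (-0.87, adjusted p = 0.0125), an inhibitor of mTOR, and Il1rapl2 (-0.84, adjusted p = 0.0206) fell while Hsd11b1 (0.80, adjusted p = 0.0262), which regenerates active glucocorticoid, rose.

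Among 8 further markers of layer 6 corticothalamic neurons, none was called in males and 2 fell in females. These were Hs3st4, a heparan sulfate sulfotransferase (-0.52, edgeR adjusted p = 0.00175), and Ntsr1, the neurotensin receptor that defines the class (-0.67, adjusted p = 0.0159). Among 10 markers of other layer 6 neurons and layer 6b, only Oprk1, the kappa opioid receptor, fell in females (-1.20, adjusted p = 0.0401) and none was called in males. Of 12 regulators of projection neuron identity, 1 fell in females, namely Lmo4 (-1.001, adjusted p = 0.0101), and none in males, with medians of -0.01 and -0.02.

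Some genes of upper layers also fell in females. Of 12 upper-layer markers, none was called in males (median -0.29) and 3 fell in females (median -0.37). Of 8 markers of all cortical excitatory neurons, none was called in males (median -0.08) and 1 fell in females (median -0.23). The members' counts and medians were not tested against those of these lists. Falls were not confined to markers of excitatory neurons: of 8 interneuron markers, 2 fell in females (median -0.31) and none was called in males (median -0.03), and of 8 markers of all neurons, 1 fell in females (median 0.06) and none was called in males (median 0.16). Named after their values were seen, the interneuron genes were Vip (-1.32, edgeR adjusted p = 0.00911) and Sst (-0.63, adjusted p = 0.00798), and the gene of all neurons was Syt1 (-0.59, adjusted p = 0.00928). These lists did not fall as a whole in females: 5 of 8 interneuron markers and 2 of 8 markers of all neurons were negative. Gad1 (0.25), Gad2 (0.21) and Slc32a1 (0.54) were positive there and not called. For scale, 2.75% of all genes tested fell in females and 0.503% in males. The upper-layer genes were Calb1 (-1.01), Lamp5 (-1.12) and Rasgrf2 (-0.58), and the excitatory gene was Emx1 (-0.69, adjusted p = 0.0499). Of the hypothalamus markers, 3 were tested in females and 1 fell, while none of the 4 tested in males was called. The 1 that fell was Trh (-1.20, edgeR adjusted p = 0.0175), at a mean of 2.89 CPM in WT and 1.25 CPM in cKO females. Of the 19 oligodendrocyte, 16 striatum, 8 astrocyte, 6 microglia and 7 vascular and leptomeningeal markers, none was called in either sex. In the mean of both sexes 1 astrocyte and 1 vascular and leptomeningeal marker rose, and none of the other 3 lists was called. Gfap, an astrocyte marker named after its values were seen, stood at 0.97 in males (edgeR adjusted p = 0.0542) and 0.80 in females (0.0669).

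**Figure D3:**
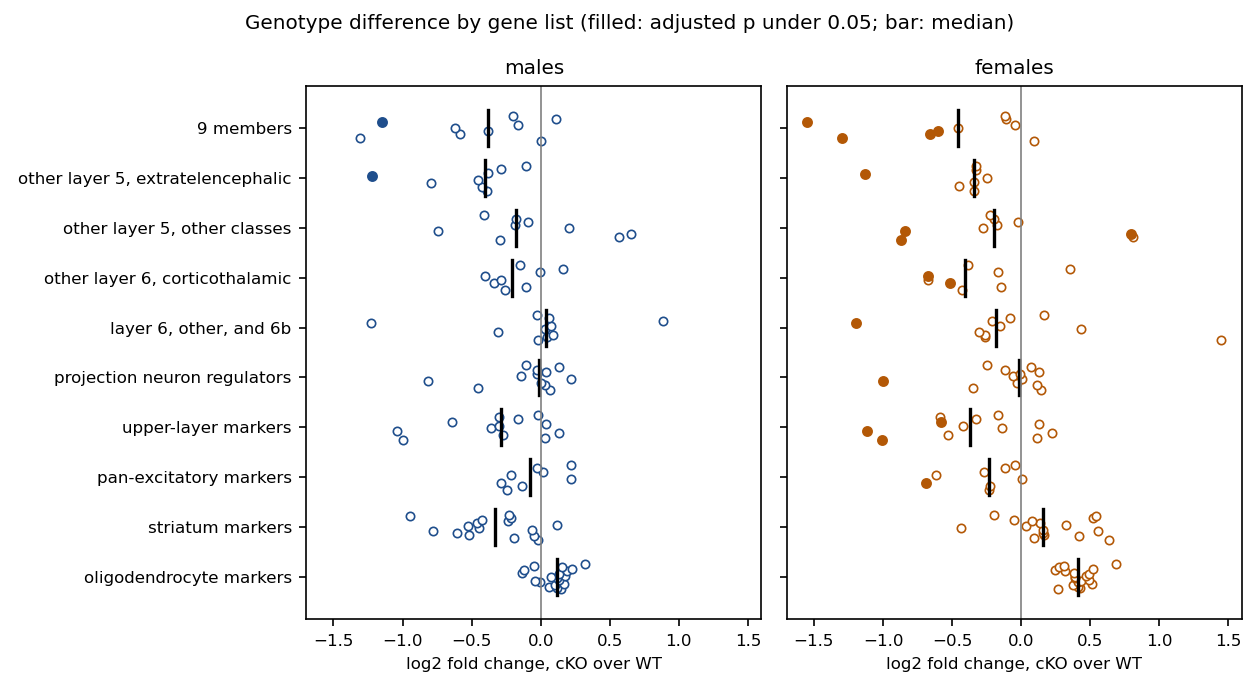
Log2 fold change of cKO over WT (x axis) for each tested gene of 10 lists in males (left) and females (right); filled points have an edgeR adjusted p under 0.05, and the black bar is the list's median. In females 4 of 9 members are called, against 3 of 12 upper-layer markers and none of the striatum markers, and oligodendrocyte markers lie to the right of 0 in females with none called.

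Variation between libraries of the same group tied some members together. Over the 22 libraries, with each value taken as a deviation of log2 CPM from its group mean, 25 of 36 pairs of members had a positive Pearson's r and 9 had an r above 0.5. The closest pairs were Fezf2 with Crym (0.92), Fezf2 with Tbr1 (0.88) and Tbr1 with Ccn3 (0.87). Thus Tbr1, which was not called, varied from library to library much as Ccn3 and Fezf2 did. Etv1 with Crym had the lowest r (-0.57). That value rested on cKO male replicate 8, since without it r was 0.05. Without that library Etv1 also went from -0.08 to 0.57 with Tbr1, from -0.21 to 0.43 with Ccn3, from -0.38 to 0.36 with Fezf2 and from -0.07 to 0.12 with Rprm. Of the 9 pairs above 0.5, 8 were still above it without that library, but their order changed. Rprm with Crym went from 0.70 to 0.92, the highest r without that library. Fezf2 with Crym went from 0.92 to 0.81, and Crym with Ccn3 from 0.70 to 0.43. These correlations share libraries, depth and the tissue piece, and are given as a description.

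**Figure D4:**
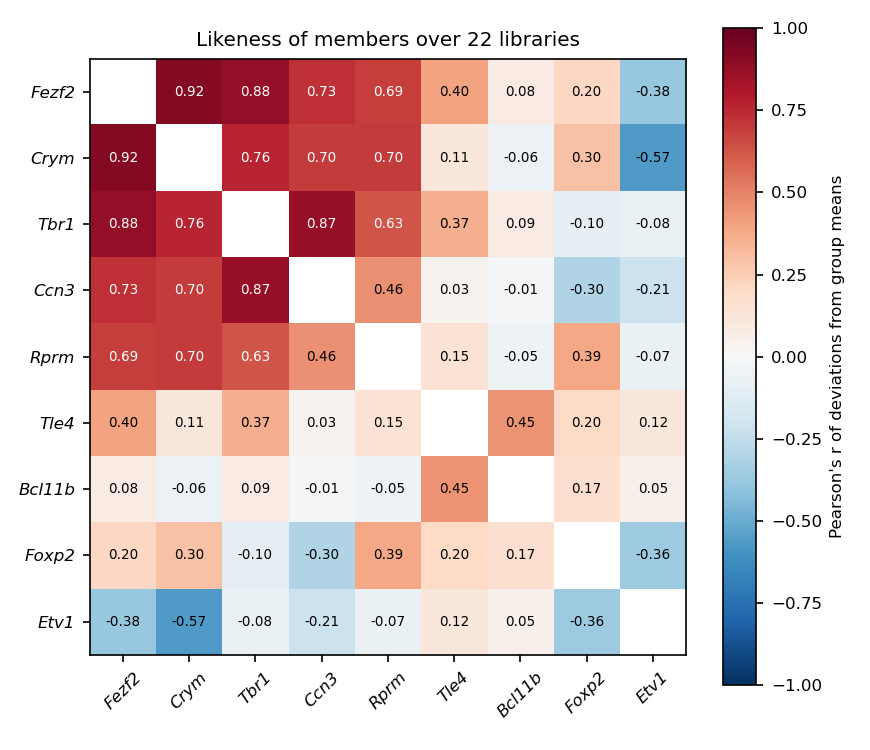
Pearson's r between each pair of members over 22 libraries, computed on log2 CPM after subtracting the mean of each of the 4 groups; red is positive and blue negative. Fezf2, Crym, Tbr1, Ccn3 and Rprm form a block of positive values, and Bcl11b stands outside it; the values of Etv1 below 0 with these 5 genes all lie above 0 without cKO male replicate 8.

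Among 11544 genes with a mean of at least 5 CPM, those most like each member in the same measure included genes of the other lists. All 22 libraries entered, cKO male replicate 8 included, and these values were not computed without it. That library was far above its group for Etv1 and the lowest of its group for Fezf2, Tbr1, Crym and Ccn3. The 3 most like Fezf2 were Tmem178 (r = 0.95), Ldb2 (0.94), which is on the layer 5 list, and Snx10 (0.94). Those most like Tbr1 included Glt8d2 and Mmd (0.96 each). For Etv1 they were Wls (0.93), Deptor (0.92), again a layer 5 marker, and Gnai3 (0.92). For Foxp2 they were Rem2 (0.81), the striatal gene Rgs9 (0.81) and Nfe2l3 (0.80). Crym was most like Syt5, Hebp1 (0.95 each) and Ppp3ca (0.94), Ccn3 most like Ccdc3, Myrip (0.95 each) and Plekhg5 (0.93), and Tle4 most like Ttc9 (0.93), Pcdh9 (0.89) and Rrm2b (0.88). Rprm was most like Pwp2 (0.86), Cyb5a (0.82) and Tmem50a (0.81), and Bcl11b most like Rint1 (0.77), Zfyve1 (0.74) and Bcr (0.74).

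The members also differed in how they followed the striatum and oligodendrocyte markers. In one fit of all 22 libraries with the 4 groups and a score, the mean log2(CPM + 1) of the striatum markers, Foxp2 rose with the score by 0.46 per unit (SE 0.07, edgeR adjusted p = 0.000149) and Etv1 fell with it, with a slope of -0.35 (SE 0.08, adjusted p = 0.00612). Of all genes, 8.47% rose and 7.61% fell with that score. With the oligodendrocyte score Foxp2 rose (0.40, SE 0.08, edgeR adjusted p = 0.00109) and Etv1 fell (-0.30, SE 0.09, adjusted p = 0.0152), as did 12.2% and 12.2% of all genes. Both scores were highest in the same library, female cKO replicate 21 (oligodendrocyte 7.69, striatum 5.26). How far the scores move together was not tested, so the fit with one is no separate support for the other. The other 7 members passed with neither score.

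Without cKO male replicate 8, which had the lowest striatum score, Foxp2 rose with both scores as before, at 0.52 per unit of the striatum score (edgeR adjusted p = 8.37e-05) and 0.44 per unit of the oligodendrocyte score (adjusted p = 0.000935). Etv1 then fell with the striatum score (-0.22, edgeR adjusted p = 0.0296) but missed the threshold with the oligodendrocyte score (-0.18, adjusted p = 0.0588), and Ccn3 fell with the striatum score (-0.39, adjusted p = 0.0158). In these fits 8.55% of all genes rose and 6.41% fell with the striatum score, and 10.6% rose and 10.1% fell with the oligodendrocyte score. With either score added to the comparison of genotypes, the 4 calls in females were kept, and in males both Rprm (edgeR adjusted p = 0.0133 and 0.0429) and Ccn3 (0.0395 and 0.0435) were called with the oligodendrocyte and the striatum score in turn.

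**Figure D5:**
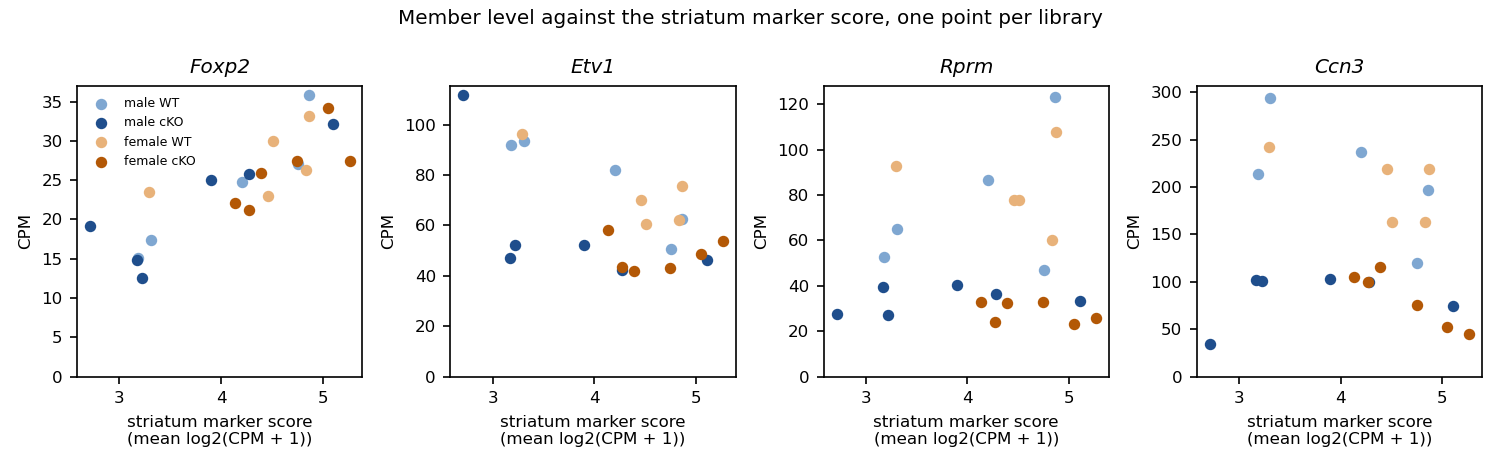
CPM (y axis) of Foxp2, Etv1, Rprm and Ccn3 against the striatum marker score (x axis, mean log2(CPM + 1) of 16 genes), 1 point per library, coloured by group. Foxp2 has a slope of 0.46 on the log2 scale per unit of score, and Rprm and Ccn3 are lower in cKO than in WT libraries across the range of scores.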

How the data were processed

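The labels' sources are prefrontal cortex RNA, selected for mRNA and made into libraries with a NEBNext Ultra II kit, per the labels' protocols. The submitters' processing notes name cutadapt, STAR, HTSeq, DESeq2 and GRCm39, without versions. The authors deposited raw counts per gene, 1 table per sex, which were analysed here. The deposited tables also hold log2 fold changes, p-values and adjusted p-values of the authors' own comparison, which are quoted only where named. The 22 columns of normalized counts were not used. One female cKO column (20) was tied to its group but not to a single title, since 1 title has an incomplete number.

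Low genes were removed by filterByExpr with its settings of 10 (count) and 15 (total), libraries were scaled with TMM factors, and genes were tested with edgeR 4.0.16 (quasi-likelihood test, R 4.3.3), each sex alone, with Benjamini-Hochberg adjustment over all genes and a threshold of 0.05. A 95% interval is the estimate with its SE and the fit's degrees of freedom. CPM values were scaled by TMM within each table, so levels set across sexes come from separate scalings. Likeness used log2 CPM with a prior count of 2. Exon lengths are from GENCODE on GRCm38, for 9 of 9 members. Each is the union of all exons of the gene and not the length of 1 transcript, and the order per kilobase depends on it. DESeq2 1.42.0 was an alternative. Scripts were tested on simulated data.

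The members and lists were chosen with earlier results of these data known. Named genes are all members, Smc3, up to 4 called genes with the smallest p of each other deep-layer or projection neuron list, defining genes of other cell types, and the 3 genes most like each member. Some genes that this rule names are not reported here. Nothing in the labels says that libraries came from separate animals, so p-values measure the spread between these libraries. Replicates of a group differed by more than sampling noise in all 50 pairs. HTSeq's strand setting is not given in the sources used here, so reads of overlapping antisense genes cannot be told apart. PCR copies were not marked by molecular identifiers.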

Additional observations from a re-analysis of the deposited data

Results flagged for a closer look

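In each group of 5 or 6 libraries, the highest and the lowest value were compared with the rest for the 9 members, Smc3 and the summed oligodendrocyte and striatum levels. Of 48 groups examined, 2 held a library far from the others, and chance flags about 1 in 20 groups. Etv1 stood at 111.8 CPM in male cKO replicate 8, the highest of its group, in which the other libraries lay between 42.2 and 52.4 CPM. The same library was the lowest of its group for 4 other members: Fezf2 (15.3 CPM), Tbr1 (54.4 CPM), Crym (27.4 CPM) and Ccn3 (34.4 CPM). Smc3 stood at 148.2 CPM in female cKO replicate 27, the highest of its group, whose median was 126 CPM.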

How the results depend on the processing

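Leaving out each library in turn, the members called ran from 0 to 2 in males and from 4 to 5 in females, and all genes called from 18 to 201 in males and from 324 to 681 in females. In males, 1 member and 94 genes were called; the count was 2 members and 328 genes with DESeq2, 2 and 269 with the oligodendrocyte score as a covariate, 2 and 179 with the striatum score, 2 and 276 in one fit of all 4 groups, 3 and 178 without cKO replicate 8 and WT replicate 1 (chosen after seeing the data; for Etv1 these are the highest cKO and the lowest WT library, so its value there is no support), and 0 members with no filter, where Rprm had an edgeR adjusted p of 0.0580. WT replicate 1 was the lowest WT male for 6 of the 9 members, Rprm and Ccn3 among them. The mean of both sexes, also added later, called 4 members and 1201 genes. In females, 4 members and 543 genes were called, with 899 genes under DESeq2, and 2 members and 294 genes in one fit of all 4 groups, where Etv1 (edgeR adjusted p = 0.194) and Crym (0.280) were lost. The 4 female calls held in all 11 fits without a library. The sex term called 0 genes in every fit run.

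Members near 0 changed sign, none of them called. The log2 fold change in males was 0.0236 for Foxp2 with the striatum score, -0.00070 for Bcl11b in the 4-group fit and -0.0427 without the pair of libraries, and in females 0.00978 for Tbr1 with the striatum score. The mean of both sexes, which is another quantity, was -0.0037 for Tbr1, against 0.11 in males and -0.11 in females. The sex term of Foxp2 was 0.0013 with the oligodendrocyte score and 0.17 with the striatum score, and that of Etv1 was -0.017 with the striatum score. Leaving out libraries gave ranges in males of -0.0568 to 0.0499 for Bcl11b, -0.0336 to 0.245 for Tbr1 and -0.316 to 0.0266 for Foxp2, and in females of -0.133 to 0.0306 for Foxp2 and -0.236 to 0.0145 for Tbr1. For the sex term they were -0.284 to 0.0185 for Fezf2, -0.263 to 0.0783 for Foxp2, -0.0708 to 0.301 for Etv1, -0.167 to 0.0112 for Tle4, -0.0361 to 0.262 for Crym and -0.172 to 0.143 for Ccn3. The cause was not tested. No paired analysis was possible because the groups share no replicate number. Counts limit Foxp2 most, at 187 in its lowest library.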
